A study of Mus musculus with 10 samples.

Results

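Genomic imprinting was examined in embryonic dorsal root ganglia (DRG) through 30 imprinted genes, chosen by name as well-known members of the imprinted clusters of the mouse genome. All 30 were found among the 55414 Ensembl genes of each library. The ganglia were taken at E18.5 from 5 *WD1* cKO and 5 control embryos and measured by bulk RNA-sequencing. *WD1* cKO embryos are *Wnt1* Cre/+; *Dach1* flox/flox, so that Cre driven by *Wnt1* sequence deletes the floxed exon 2 of *Dach1* throughout the neural crest, which gives rise to the neurons and glia of the ganglia, while control embryos are *Wnt1* +/+; *Dach1* flox/flox and carry no Cre. The floxed line was kept on a mixed C57Bl/6J and CD1 background, and *WD1* cKO mice die soon after birth. In the labels the genotype entries stand against the sample titles, each group carrying the entry of the other, and the titles were followed. The study describes the controls as littermates of the *WD1* cKO embryos, but no label says which embryos shared a litter. The counts hold no allele information, so that a level is the sum of the maternal and the paternal copy.

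An imprinted gene is transcribed from the copy inherited from one parent and is silenced on the other, through DNA methylation set at imprinting control regions in the germ line and kept through development. Many genes with an active paternal copy, such as *Igf2*, *Dlk1*, *Mest*, *Peg3* and *Plagl1*, promote growth of the embryo, and many genes with an active maternal copy, such as *H19*, *Cdkn1c*, *Grb10* and *Igf2r*, restrain it. In the nervous system several of them are expressed at high levels, and *Ube3a* and *Grb10* are imprinted there in a way that differs from other tissues.

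Control libraries held 20465132 to 27528784 counts and *WD1* cKO libraries 19757596 to 34796562. *Dach1* was counted 719 to 1008 times in control and 399 to 708 times in *WD1* cKO libraries, at a log2 fold change of -0.92 (standard error 0.050; edgeR's quasi-likelihood test, adjusted p = 5.48e-06), and reads on every exon enter that count. All 7 sensory neuron markers and all 6 glia markers were above 1 CPM (counts relative to library size, scaled by TMM) in every library. So were the 7 connective tissue and 5 endothelial markers, with connective tissue markers summing to 4376 to 6086 CPM. Blood markers summed to between 463 and 2356 CPM in replicates 1 to 3 of both groups, and to between 148 and 222 CPM in replicates 4 and 5. Control replicate 3 had the highest sum of spinal cord markers, at 12.0 CPM, against at most 1.06 CPM elsewhere. In such bulk tissue, fewer cells of a type and less RNA per cell cannot be told apart.

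Of the 30 genes, 13 lie on chromosome 7, 5 on chromosome 12 and 5 on chromosome 6. Promoter windows of RefSeq (GRCm38.p6, from 250 bases before to 50 bases after a transcript start) were at hand for 24 of the genes, with 38 windows in all. They were searched for TGCCGC and its reverse complement GCGGCA, the letters bound by ZFP57, a zinc finger protein that keeps methylation on the silenced copy at imprinting control regions. The motif was found in 11 of the 38 windows (28.9%), against 11.6% of all 32817 windows of this length, and the median number of CpG dinucleotides was 13.5 against 7. The motif itself contains a CpG, and the windows were not matched for CpG number. The 11 include overlapping windows of *Mest* (chr6:30737800-30738099 and chr6:30737803-30738102), with 2 matches each. The windows are shown for the genes on which the results below turn. *Igf2* and *Meg3* belong to gene groups that varied in opposite directions between embryos, *Peg3* shares its start region with *Usp29*, and *Nap1l5* and *Zdbf2* had the smallest p-values between genotypes. Where a gene has several windows, the one with most matches is given. Each window is written 5′ to 3′ on the strand of the gene, with the motif letters in capitals.
Igf2: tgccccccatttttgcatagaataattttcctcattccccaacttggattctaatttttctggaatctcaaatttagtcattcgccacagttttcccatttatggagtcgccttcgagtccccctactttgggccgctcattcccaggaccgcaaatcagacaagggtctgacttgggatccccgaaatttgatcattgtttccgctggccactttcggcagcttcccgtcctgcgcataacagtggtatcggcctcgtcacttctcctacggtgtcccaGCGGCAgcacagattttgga
Meg3: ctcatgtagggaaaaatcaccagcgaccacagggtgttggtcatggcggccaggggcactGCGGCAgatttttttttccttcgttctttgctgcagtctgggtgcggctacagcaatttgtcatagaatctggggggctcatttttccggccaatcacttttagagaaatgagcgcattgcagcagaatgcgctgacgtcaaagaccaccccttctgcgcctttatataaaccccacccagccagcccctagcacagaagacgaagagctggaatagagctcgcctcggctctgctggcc
Peg3: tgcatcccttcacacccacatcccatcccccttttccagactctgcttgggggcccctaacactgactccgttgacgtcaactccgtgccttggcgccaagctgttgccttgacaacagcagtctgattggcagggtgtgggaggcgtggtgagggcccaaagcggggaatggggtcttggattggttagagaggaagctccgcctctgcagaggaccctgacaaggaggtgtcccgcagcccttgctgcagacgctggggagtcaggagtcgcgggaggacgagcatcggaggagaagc
Nap1l5: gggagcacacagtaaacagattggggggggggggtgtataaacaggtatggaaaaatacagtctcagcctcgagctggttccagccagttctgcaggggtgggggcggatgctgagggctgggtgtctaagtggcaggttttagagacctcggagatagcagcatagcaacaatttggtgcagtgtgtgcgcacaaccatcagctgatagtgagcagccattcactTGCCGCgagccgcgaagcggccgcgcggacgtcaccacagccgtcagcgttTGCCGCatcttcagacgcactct
Zdbf2: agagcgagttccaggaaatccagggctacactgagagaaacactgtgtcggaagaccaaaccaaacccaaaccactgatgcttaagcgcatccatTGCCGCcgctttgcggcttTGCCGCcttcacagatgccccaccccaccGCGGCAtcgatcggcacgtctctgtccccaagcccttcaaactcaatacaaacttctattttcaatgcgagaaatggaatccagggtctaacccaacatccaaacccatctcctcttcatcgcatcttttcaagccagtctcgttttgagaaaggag

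The *Igf2* window (chr7:142661222-142661521, minus strand) held 1 match, and the other 3 windows of the gene held none. The *Meg3* window (chr12:109540746-109541045, plus strand) held 1 match. The *Nap1l5* window (chr6:58907077-58907376, minus strand) held 2 matches, and the upstream window of *Zdbf2* (chr1:63200108-63200407, plus strand) held 3, more than any other of the 38 windows. The *Peg3* window (chr7:6730370-6730669, minus strand) held no match, and 263 of its bases are shared with the window of *Usp29*, which is transcribed in the opposite direction. A match describes the letters of the reference only, since methylation and binding were not measured in these samples.

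The 30 genes together made up 1.10% to 1.21% of all assigned reads in the 10 libraries. The non-coding RNA *Meg3* alone took 0.448% to 0.535%, *Rian*, its neighbour on chromosome 12, took 0.143% to 0.159%, and *H19* took 0.109% to 0.181%. To compare genes with one another, CPM was divided by the length of the exons in kb. On this per-length scale *H19*, a maternally expressed non-coding RNA of the *Igf2* locus, was the highest of the 30, with a mean over the 10 libraries of 589 CPM per kb (range 452 to 729), and ranked 18 among the 17490 genes tested. *Meg3* followed at 273 CPM per kb (245 to 300), rank 64, and *Nnat*, which encodes the small membrane protein neuronatin, at 246 CPM per kb (212 to 275), rank 75. The ranges of *Meg3* and *Nnat* overlapped, whereas that of *H19* lay above both.

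**Figure D1:**
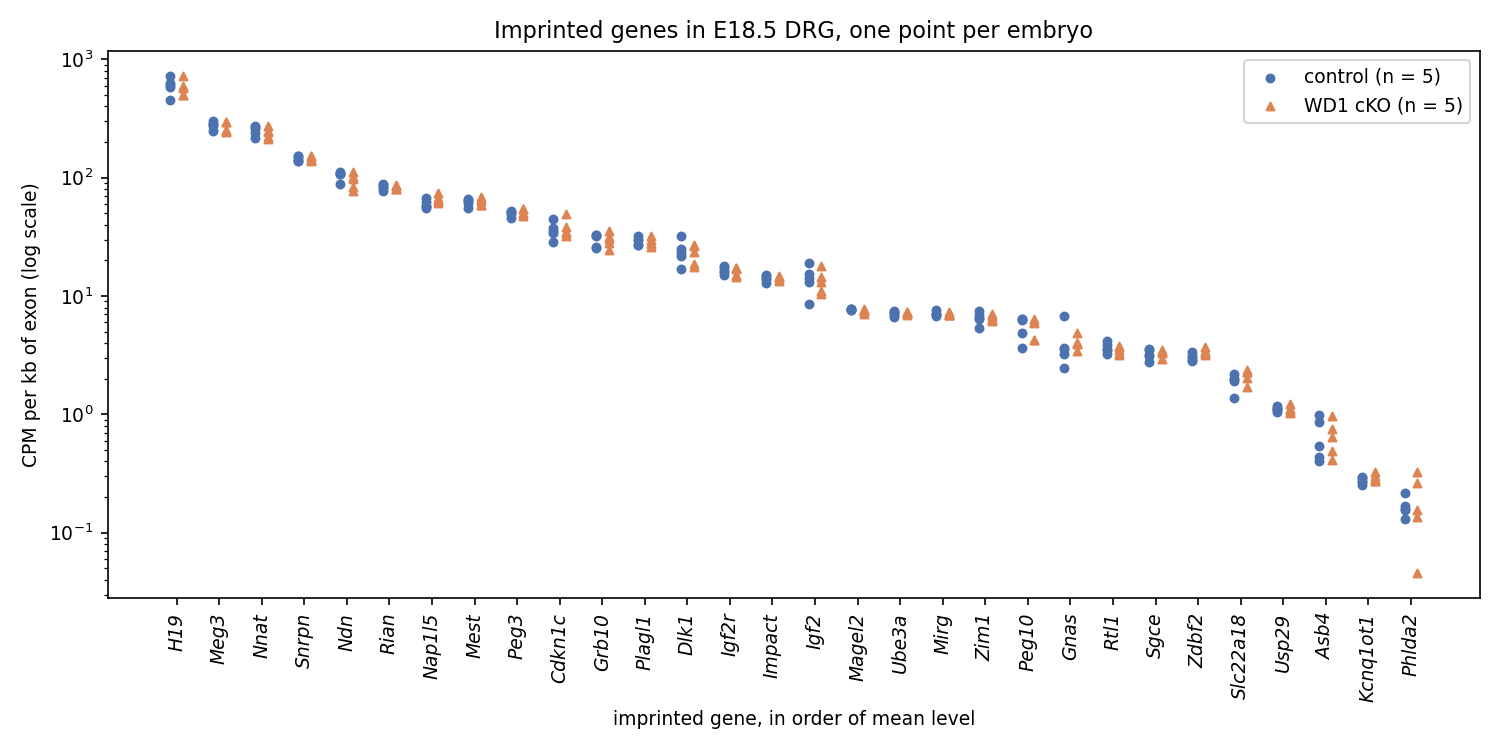
Level of each imprinted gene in CPM per kb of exon (log axis), with 1 point per embryo, control as circles and *WD1* cKO as triangles (n = 5 each). The genes span from 589 (*H19*) to 0.175 (*Phlda2*) CPM per kb, and the ranges of both groups overlap in every gene.

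Next in order came *Snrpn*, a splicing protein gene of the Prader-Willi region, at 145 CPM per kb, *Ndn*, which encodes the growth-restraining MAGE protein necdin, at 99.7, and *Rian* at 83.8. *Nap1l5* (63.1), *Mest* (62.5) and *Peg3* (50.6) formed a close group, in which *Nap1l5* and *Mest* did not differ beyond their spread. *Cdkn1c*, which encodes the cell cycle inhibitor p57, stood at 36.9 CPM per kb, followed by *Grb10* (29.9), an adaptor that dampens insulin and IGF signalling, and the zinc finger gene *Plagl1* (28.9). *Dlk1*, a Notch-like membrane protein, had 23.2 CPM per kb. *Igf2r*, the receptor that clears IGF2, had 16.4, *Impact* 14.1 and *Igf2* itself 13.7 CPM per kb, and their ranges overlapped. *Igf2*, the fetal growth factor, was thus far below *H19* on this scale (range 8.49 to 18.9 CPM per kb). *Magel2* (7.60), *Ube3a* (7.14), *Mirg* (7.07), *Zim1* (6.53) and *Peg10* (5.46) each overlapped with the next in this order. *Gnas* (3.99), *Rtl1* (3.59), *Sgce* (3.27) and *Zdbf2* (3.22) overlapped with each other. *Slc22a18*, *Usp29*, *Asb4* and *Kcnq1ot1* lay between 2.02 and 0.284 CPM per kb, and *Phlda2*, a growth regulator of the placenta, was counted only 1 to 11 times per library and was not tested.

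Counting limits touch some of these levels. In the GRCm38 annotation, 62.8% of the exon bases of *Igf2* are also exons of the read-through gene *Gm49394*, which had 0 counts in every library, and 27.3% of those of *Snrpn* are shared with *Snurf* (0 counts) and *Gm38393* (1421 to 3244 counts). On the opposite strand, *Gm44732* (0 counts in every library) covers 30.7% of the exon bases of *Cdkn1c*, *Snhg14* (4066 to 7852 counts) together with other genes covers 27.3% of *Ube3a*, *Copg2* covers 23.1% of *Mest*, and *Nespas* and *Gm20721* cover 22.0% of *Gnas*. For *Igf2* and *Snrpn* the shared exons lie on the same strand, so a strand setting would not separate their reads. Neither the strand setting of the counting nor its handling of reads that lie in several genes is given in the sources used here. Reads in those stretches thus cannot be assigned with certainty, and the levels of these 6 genes are uncertain. If reads in several genes were left out, 0 counts would not mean absence and the level of *Igf2* would be too low.

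The study asked what the loss of *Dach1* from the neural crest changes in the developing ganglia. In the imprinted genes no difference between the genotypes passed the test. A minimum of 10 counts in 5 or more libraries was met by 29 of the 30 genes. By edgeR's quasi-likelihood test 0 of them were called at an adjusted p of 0.05 (Benjamini-Hochberg over all 17490 genes tested, of which 0.0400% were called). The same number, 0, was called by DESeq2's Wald test. At an unadjusted p-value under 0.05 there were 2, both higher in *WD1* cKO embryos, against 4.50% of all genes in either direction and 2.12% in that direction. In 0 of the 29 genes were the groups free of overlap, against 1.06% of all genes. The log2 fold changes ranged from -0.15 to 0.17, with 14 above and 15 below 0, and 25 were within 0.1 of 0. Their median was -0.00015, against 0.00022 over all genes tested, and their median absolute log2 fold change was 0.038, against 0.053.

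**Figure D2:**
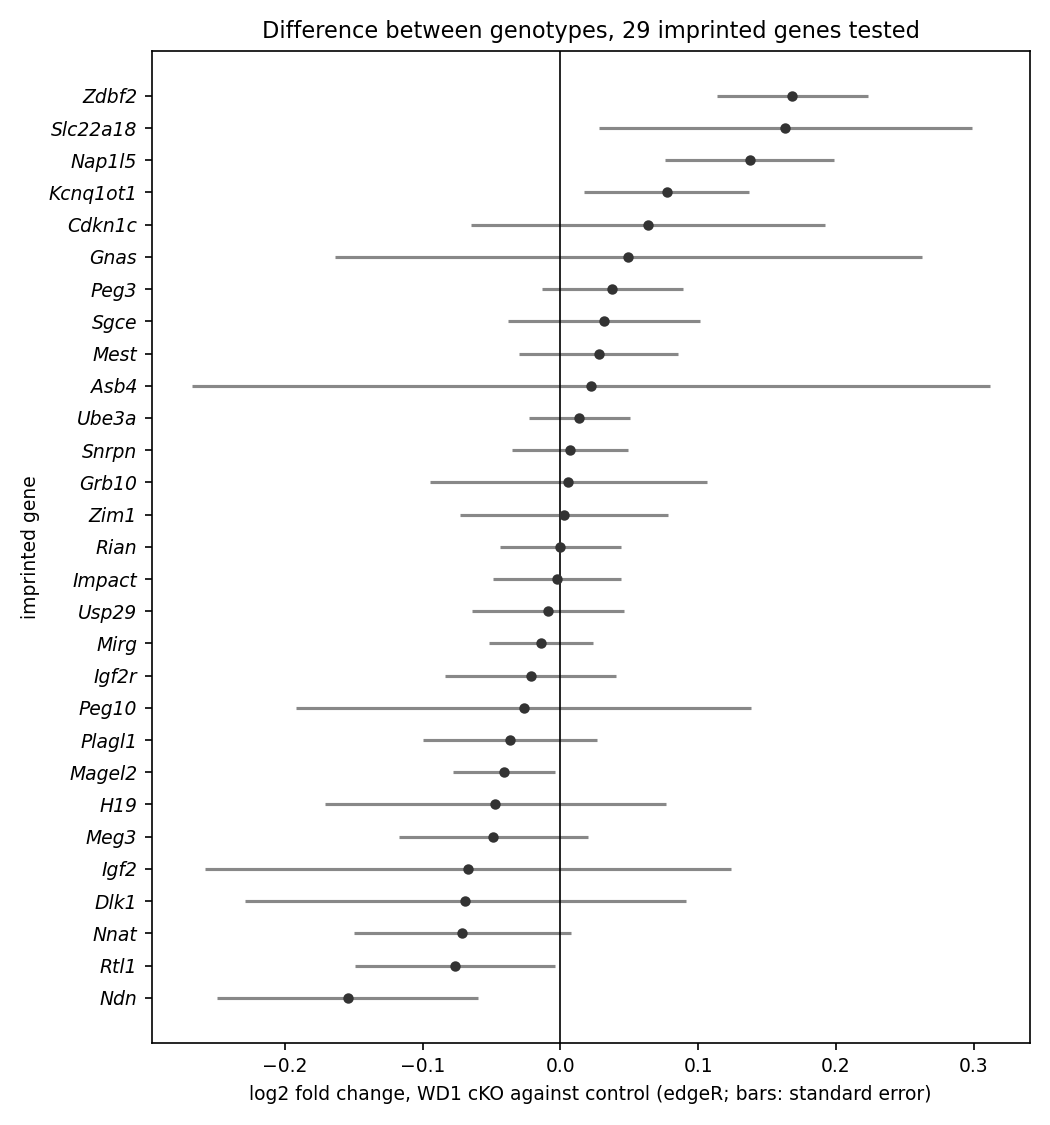
Log2 fold change of *WD1* cKO against control for the 29 imprinted genes tested, in order of size, with the standard error of edgeR's fit as bars. The values run from -0.15 (*Ndn*) to 0.17 (*Zdbf2*), and none of the 29 had an adjusted p-value under 0.05.

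*Zdbf2*, a paternally expressed gene that promotes growth around birth, stood at 36.6, 42.3, 39.5, 35.7 and 37.7 CPM in control replicates 1 to 5, and at 46.8, 43.8, 42.6, 42.1 and 40.3 CPM in *WD1* cKO replicates 1 to 5. Its highest control embryo lay above the lowest 2 *WD1* cKO embryos, so the groups overlapped. The means were 38.4 ± 2.62 CPM in control and 43.1 ± 2.40 CPM in *WD1* cKO (SD, n = 5 each), a log2 fold change of 0.17 (standard error 0.055; edgeR, unadjusted p = 0.00955, adjusted p = 1.00). *Nap1l5*, a retrogene that lies within an intron of *Herc3* and encodes a nucleosome assembly protein, stood at 106, 106, 103, 115 and 125 CPM in control and at 118, 119, 113, 123 and 137 CPM in *WD1* cKO replicates 1 to 5. The highest 2 control embryos lay above the lowest *WD1* cKO embryo, so these groups overlapped as well. The means were 111 ± 8.90 and 122 ± 9.23 CPM (SD, n = 5 each), a log2 fold change of 0.14 (standard error 0.061; edgeR, unadjusted p = 0.0447, adjusted p = 1.00). Over 18 alternative fits in edgeR or DESeq2, the unadjusted p-value of *Zdbf2* was under 0.05 in 18 (0.00214 to 0.0313) and that of *Nap1l5* in 10 (0.000385 to 0.127), of which 3 were among the 10 fits that leave out a library. The lowest adjusted p-value in these edgeR and DESeq2 fits was 0.468 for *Zdbf2* and 0.224 for *Nap1l5*.

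At the other end of the order was *Ndn*. Control replicates 1 to 5 had 398, 404, 326, 398 and 414 CPM, and *WD1* cKO replicates had 412, 309, 287, 376 and 359 CPM. Control replicate 3 and *WD1* cKO replicates 2 and 3 were the low embryos, and the highest *WD1* cKO embryo exceeded all control embryos but replicate 5. The log2 fold change was -0.15 (standard error 0.095; edgeR, unadjusted p = 0.129, adjusted p = 1.00). *Slc22a18*, a transporter gene counted 50 to 134 times per library, had a log2 fold change of 0.16 (standard error 0.14; edgeR, unadjusted p = 0.250). The growth genes of the *Igf2* locus were at -0.067 (*Igf2*, standard error 0.19) and -0.047 (*H19*, 0.12), and *Cdkn1c* was at 0.063 (standard error 0.13). *Meg3* (-0.049), *Rian* (-0.00015) and *Mirg* (-0.014), the non-coding RNAs of the chromosome 12 cluster, had standard errors between 0.038 and 0.069.

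The precision differed between genes. The standard errors of the log2 fold changes ranged from 0.037 (*Ube3a* and *Magel2*) to 0.29 (*Asb4*, counted 38 to 114 times per library).

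Genes related to imprinting were examined in the same fit. Among 46 other imprinted genes, 42 were tested, 0 were called and 1 had an unadjusted p-value under 0.05, with a median log2 fold change of -0.0090. That gene was *Tssc4*, a splicing factor gene near *Cdkn1c*. Its 5 control embryos lay between 28.6 and 31.4 CPM and its 5 *WD1* cKO embryos between 26.7 and 29.0 CPM, a log2 fold change of -0.11 (edgeR, unadjusted p = 0.0202, adjusted p = 1.00). *Ins2*, *Calcr*, *Snurf* and *Zfp264* were too low to be tested. Of 14 genes of the IGF pathway, which carries the signal of *Igf2*, all 14 were tested, 0 were called and 1 had an unadjusted p-value under 0.05, with a median of 0.0095. It was the ligand gene *Igf1*, at 82.9, 83.1, 72.1, 68.1 and 67.6 CPM in control and 84.7, 80.2, 90.9, 79.9 and 84.0 CPM in *WD1* cKO replicates 1 to 5 (log2 fold change 0.17; edgeR, unadjusted p = 0.0223, adjusted p = 1.00). Among 15 genes that set or keep imprints, such as *Zfp57*, *Trim28*, *Dnmt1* and *Ctcf*, 14 were tested and 0 had an unadjusted p-value under 0.05, with log2 fold changes from -0.098 to 0.058. The oocyte factor *Dppa3* was not tested.

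Embryos of the same genotype differed widely in some imprinted genes. The within-group SD of log2 CPM was set against that of the 500 genes of most similar level. In 10 of the 29 genes it lay above the 90th percentile, and the median percentile was 82.8. *Igf2* stood at percentile 99.6 (SD 0.38 on the log2 scale), *Dlk1* and *Gnas* at 99.4, *Peg10* at 98.8, *Cdkn1c* at 98.4, *H19* at 97.4 and *Grb10* at 96.6. *Ndn* (95.4), *Asb4* (94.2) and *Nnat* (91.2) completed the 10. These SDs include any difference between replicates 1 to 3 and replicates 4 and 5. Of the 10, *Peg10*, *Cdkn1c*, *Grb10*, *Asb4* and *Nnat* had no overlap between those sets, as described below. The percentile of *Gnas* leans on control replicate 1, which lay far above its group. Its SD was 18.3 CPM in control and 6.12 CPM in *WD1* cKO embryos. At the low end, *Magel2* stood at percentile 2.4 (32.6 to 36.0 CPM over all 10 embryos), *Mirg* at 15.6 and *Usp29* at 22. The median within-group SD of the 29 genes was 0.122, close to the 0.120 of all genes tested, which include many at lower levels.

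**Figure D3:**
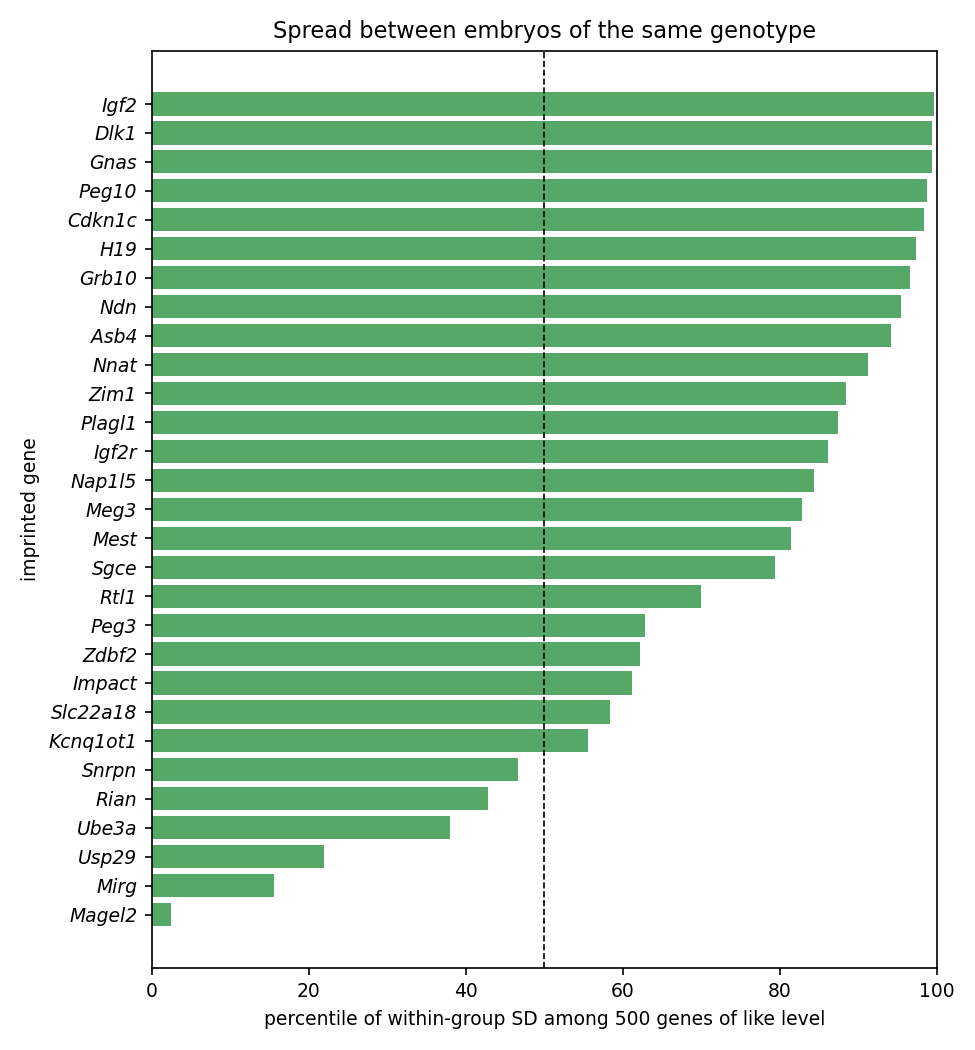
Percentile of the within-group SD of log2 CPM of each imprinted gene among the 500 genes of most similar mean level, with the dashed line at the middle of the scale. *Igf2*, at 99.6, is the most variable for its level, and *Magel2*, at 2.4, the least.

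*Igf2* stood at 87.8, 75.5, 108, 81.9 and 48.6 CPM in control replicates 1 to 5 and at 74.6, 82.7, 104, 59.5 and 62.7 CPM in *WD1* cKO replicates 1 to 5. *H19* stood at 1498, 1426, 1784, 1543 and 1111 CPM in control and at 1461, 1407, 1792, 1227 and 1237 CPM in *WD1* cKO replicates 1 to 5. Replicate 3 was the highest of each group in both genes, and the low embryos of both were control replicate 5 and *WD1* cKO replicates 4 and 5. *Igf2* and *H19* are neighbours on chromosome 7 that share enhancers and are expressed from opposite parental copies. Over the 10 embryos their log2 CPM had a Pearson r of 0.97 (permutation p = 4.0e-05) and a Spearman rho of 0.88 (permutation p = 0.00147). Among all 17489 other genes tested, *H19* ranked 1 in its correlation with *Igf2*. The r was 0.95 without the 2 embryos farthest from the median of *Igf2* and 0.93 within replicates 1 to 3 (n = 6, exact permutation p = 0.0222). With the means of the genotype and of replicates 1 to 3 or 4 and 5 removed, it was 0.96.

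**Figure D4:**
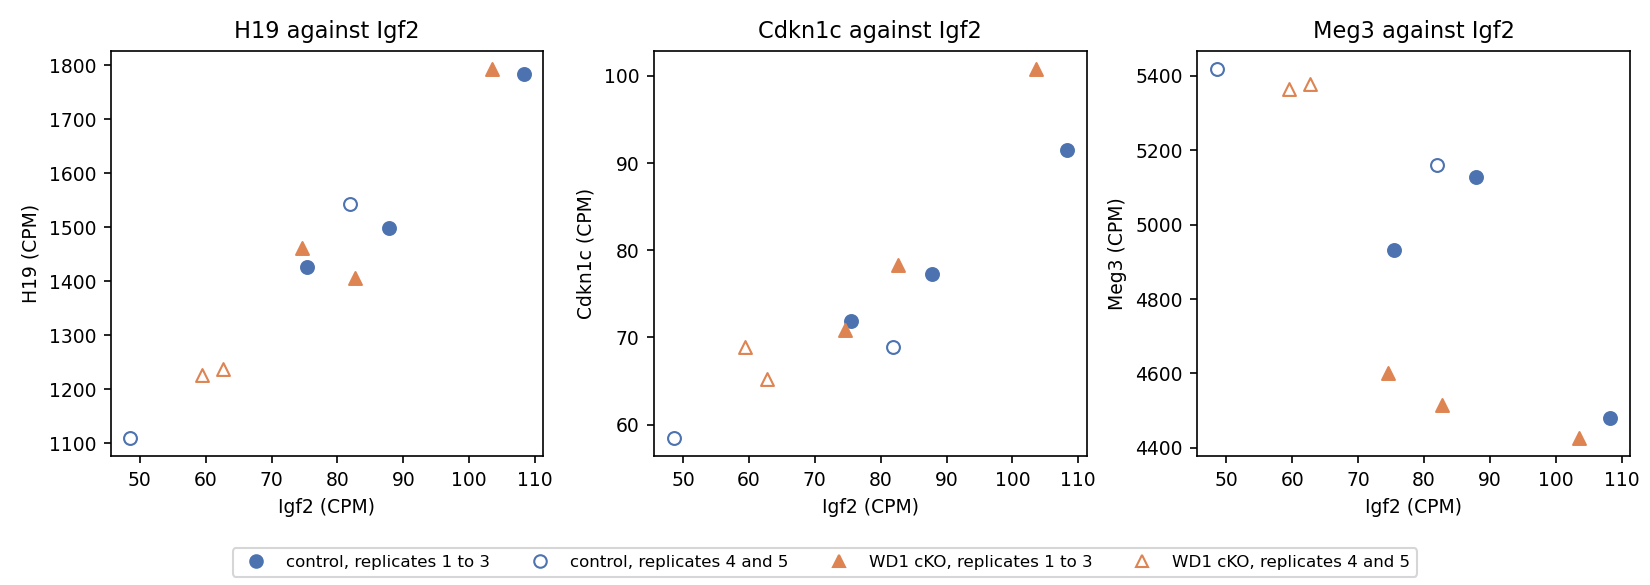
Levels of *H19*, *Cdkn1c* and *Meg3* against *Igf2* in CPM, with 1 point per embryo, control as circles and *WD1* cKO as triangles, filled for replicates 1 to 3 and open for replicates 4 and 5. *H19* rises with *Igf2* from 1111 to 1792 CPM, *Cdkn1c* from 58.5 to 101 CPM, and the embryos with most *Igf2* have the least *Meg3*.

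In all, 27 pairs of neighbours or growth genes were compared over the embryos with permutation tests of 100000 resamples, two-sided. In 14 of them the p-value of r was under 0.05, and 9 stayed under 0.05 after Benjamini-Hochberg adjustment over the 27 pairs, 8 positive and 1 negative. The 8 include *Peg10* with *Asb4*, whose r within replicates 1 to 3 was 0.29 (n = 6, exact permutation p = 0.575), and *Ndn* with *Magel2*, which rested on 2 embryos. The share of pairs of all genes at these p-values was not computed, so the counts cannot be called particular to imprinted neighbours. The count of 14 fell once the means of the replicate numbers were removed, as given at the end. The adjusted p-value of *Igf2* and *H19* was 0.00108 for r and 0.0183 for rho. *Cdkn1c*, which lies in the neighbouring cluster under its own control region, followed *Igf2* at r = 0.91 (permutation p = 0.00026, adjusted p = 0.00243; rho = 0.93, permutation p = 0.00033, adjusted p = 0.00891) and *H19* at r = 0.90 (permutation p = 0.00053, adjusted p = 0.00358; rho = 0.78, permutation p = 0.0105, adjusted p = 0.0316). Its levels were 77.3, 71.9, 91.6, 68.9 and 58.5 CPM in control and 70.9, 78.3, 101, 68.9 and 65.2 CPM in *WD1* cKO replicates 1 to 5. As in *Igf2*, replicate 3 was the highest of each group and control replicate 5 the lowest embryo. Both relations held without the 2 farthest embryos (r = 0.84 and 0.79) and within replicates 1 to 3 (r = 0.94 and 0.92, n = 6).

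The non-coding RNAs of the chromosome 12 cluster, which are thought to be made as parts of a long maternal transcript, varied together. *Meg3* stood at 5127, 4933, 4480, 5160 and 5418 CPM in control and 4601, 4514, 4427, 5366 and 5378 CPM in *WD1* cKO replicates 1 to 5. Its lowest embryos were replicate 3 of each group and *WD1* cKO replicates 1 and 2. *Meg3* and *Mirg* had an r of 0.85 (permutation p = 0.00027, adjusted p = 0.00243; rho = 0.87, permutation p = 0.00203, adjusted p = 0.0183), which was 0.83 without the 2 farthest embryos and 0.88 within replicates 1 to 3. *Rian* and *Mirg* had an r of 0.78 (permutation p = 0.00647, adjusted p = 0.0291; rho = 0.82, permutation p = 0.00558, adjusted p = 0.0257), and *Meg3* and *Rian* 0.76 (permutation p = 0.0144, adjusted p = 0.0463; rho = 0.82, permutation p = 0.00572, adjusted p = 0.0257). Within replicates 1 to 3 these fell to 0.55 and 0.64, and neither had an exact permutation p under 0.05 there (0.260 and 0.192, n = 6). In the order of likeness to *Meg3*, *Mirg* ranked 133 and *Rian* 603 of 17489 genes. Many genes outside the cluster thus followed *Meg3* more closely than *Rian* did.

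The protein-coding genes of the same cluster are active on the paternal copy. *Dlk1* ran against *Meg3*, at r = -0.76 (permutation p = 0.0143, adjusted p = 0.0463; rho = -0.78, permutation p = 0.0105, adjusted p = 0.0316), with -0.74 without the 2 farthest embryos and -0.58 within replicates 1 to 3 (n = 6, exact permutation p = 0.238). It stood at 142, 123, 181, 95.7 and 131 CPM in control and at 132, 149, 153, 105 and 101 CPM in *WD1* cKO replicates 1 to 5, again with replicate 3 the highest of each group. *Rtl1*, a retrotransposon-derived gene transcribed opposite to microRNAs of the cluster, showed no relation to *Meg3* over all embryos (r = 0.052, permutation p = 0.886; rho = -0.055, permutation p = 0.892), while within replicates 1 to 3 the r was 0.89 (n = 6, exact permutation p = 0.0111). That difference between the pooled value and the value within replicates 1 to 3 was not tested.

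Other pairs depended on few embryos or on the replicate numbers. *Ndn* and *Magel2*, neighbours in the Prader-Willi region, had an r of 0.71 (permutation p = 0.0154, adjusted p = 0.0463) but a rho of 0.38 (permutation p = 0.279), and an r of 0.74 within replicates 1 to 3 (n = 6, exact permutation p = 0.0389). The r was -0.020 without the 2 embryos farthest from the median of *Ndn*, so the relation rested on those embryos. *Peg3* and *Usp29*, which start from the same region in opposite directions, had an r of -0.65 (permutation p = 0.0403, adjusted p = 0.0776; rho = -0.66, permutation p = 0.0447), which was -0.050 within replicates 1 to 3 (n = 6, exact permutation p = 0.924). *Igf2* and its receptor gene *Igf2r* had an r of 0.66 (permutation p = 0.0379, adjusted p = 0.0776; rho = 0.75, permutation p = 0.0166), 0.79 within replicates 1 to 3 (n = 6, exact permutation p = 0.050) and -0.021 once the means of genotype and of the replicate numbers were removed. *Peg10*, a retrotransposon-derived gene on chromosome 6, stood at 39.6 to 43.0 CPM in replicates 1 to 3 and at 24.5 to 32.4 CPM in replicates 4 and 5. The gap between these sets was the widest between any neighbouring embryos in the order of *Peg10*, so no pooled r is given for it. In the other members whose sets did not overlap, named below, the gap was not the widest, and a pooled r is given. Within replicates 1 to 3 the r of *Peg10* with *Sgce* was 0.0084 (n = 6, exact permutation p = 0.990).

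**Figure D5:**
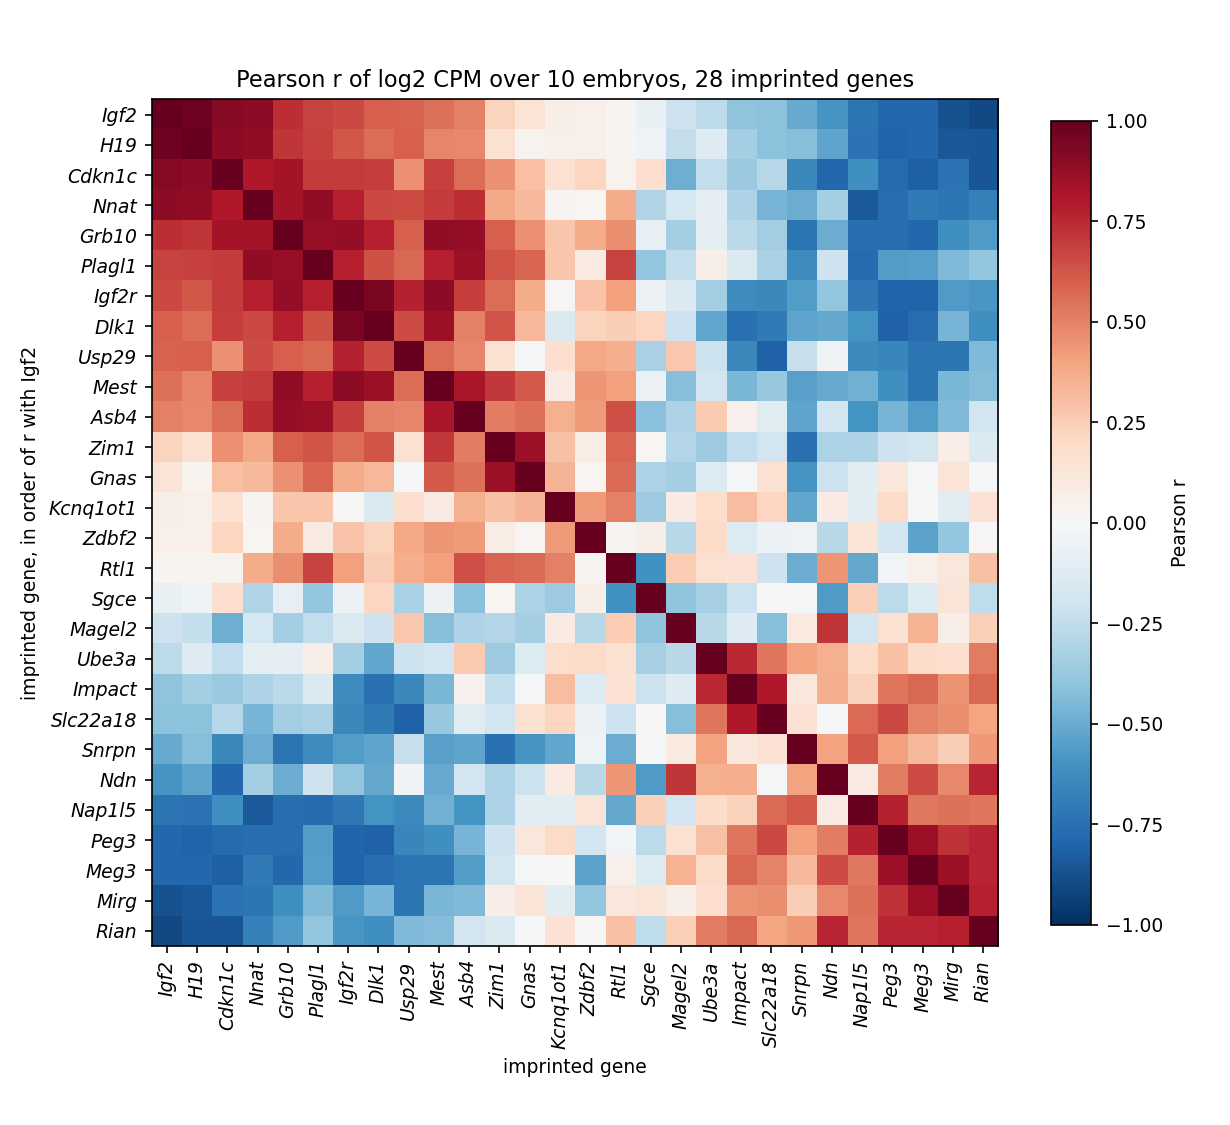
Pearson r of log2 CPM over the 10 embryos between 28 imprinted genes, ordered by their r with *Igf2* (colour from -1 to 1). Genes from *Igf2* to *Asb4* form a block of positive values, which has negative values against *Nap1l5*, *Peg3*, *Meg3*, *Mirg* and *Rian* at the other end. These values are pooled over the replicate numbers. With the means of genotype and of the replicate numbers removed, the r with *Igf2* was 0.96 for *H19*, 0.86 for *Cdkn1c* and 0.83 for *Nnat*. In the rest of the block it lay between -0.31 (*Asb4*) and 0.29 (*Grb10*). For the genes at the other end it lay between -0.89 (*Rian*) and -0.53 (*Peg3*).

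Across all members, leaving out *Peg10* and *Phlda2*, 77 of 378 pairs (20.4%) had an absolute r over 0.7, 41 positive and 36 negative, against 5.00% of the pairs of all genes tested. With the means of genotype and of the replicate numbers removed the share was 8.99%. The share over all genes was not computed with these means removed, so 5.00% is no measure for the 8.99%. The pairs of all genes were also not matched to the members for level. These values are given as a description, since the pairs share embryos and libraries. In the order of likeness to *Igf2*, *Cdkn1c* ranked 39 and *Nnat* ranked 55 of 17489 genes (r = 0.90), and *Grb10* ranked 693 (r = 0.74). With the means of genotype and of the replicate numbers removed, the r with *Igf2* was 0.86 for *Cdkn1c* and 0.83 for *Nnat* but 0.29 for *Grb10*. At the opposite end of that order, *Rian* was the gene with rank 23 from the bottom (r = -0.90), *Mirg* with rank 78 (r = -0.87), *Meg3* with rank 431 (r = -0.79) and *Peg3* with rank 449 (r = -0.78). With the same means removed these were -0.89, -0.77, -0.59 and -0.53. The 10 genes most like *Igf2* were *H19*, *Arhgdib* (r = 0.95), *Mlf2* (0.95), *Fzd10* (0.95), *Foxc1* (0.94), *Fn1* (0.94), *Akirin2* (0.94), *Zfp467* (0.94), *Notch2* (0.94) and *Zfp574* (0.94). *Fn1* encodes the matrix protein fibronectin, *Foxc1* a transcription factor of mesenchyme and meninges, and *Fzd10* and *Notch2* are receptors of Wnt and Notch signals. The 10 genes most like *Meg3* were *Ist1* (0.96), *Vps13d* (0.95), *Tmem267* (0.95), *Far2* (0.95), *Ptpdc1* (0.95), *Vwa5b2* (0.94), *Erap1* (0.94), *St8sia5* (0.93), *Iffo1* (0.93) and *Pld6* (0.93). Among the imprinted genes, *Peg3* was the most like *Meg3* (r = 0.86, rank 121), ahead of *Mirg* (rank 133), and with the means removed their r with *Meg3* was 0.93 and 0.64.

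Each tested member was also set beside the mean log2 CPM of 7 lists of cell type markers, in 203 relations. None passed Benjamini-Hochberg adjustment (smallest adjusted p = 0.0715, permutation test), while 29 had an unadjusted p-value under 0.05. This call changed with the processing, since 3 relations passed with the genotype means removed, 6 with the means of the replicate numbers removed as well, 6 without *WD1* cKO replicate 3, and 1 each without control replicate 5 or *WD1* cKO replicate 5. Where means were removed, the deviations were permuted freely over the embryos, which can make those p-values too small and those counts too high. Of the 29, 10 were with blood, whose levels differed between the replicate numbers as given above, 8 with connective tissue, 8 with endothelium, 2 with skeletal muscle, 1 with sensory neurons and 0 with glia or spinal cord markers. These relations were not computed for other genes, so no share over all genes stands beside the counts. Whether they are particular to imprinted genes was not tested. *Dlk1* had the closest relation, with endothelial markers (r = 0.91, permutation p = 0.00037, adjusted p = 0.0715; rho = 0.92, permutation p = 0.00057), and r was 0.80 without the 2 farthest embryos and 0.89 within replicates 1 to 3. *Cdkn1c* followed connective tissue markers (r = 0.86, permutation p = 0.00176, adjusted p = 0.0715; rho = 0.71, permutation p = 0.0271; 0.60 without the 2 farthest embryos; 0.85 within replicates 1 to 3). *Ndn* ran against them (r = -0.88, permutation p = 0.00102, adjusted p = 0.0715; rho = -0.79, permutation p = 0.00874; -0.77 without the 2 farthest embryos; -0.87 within replicates 1 to 3). *Impact*, which encodes a regulator of translation, ran against endothelial markers (r = -0.85, permutation p = 0.00175, adjusted p = 0.0715; rho = -0.82, permutation p = 0.00595; -0.81 without the 2 farthest embryos; -0.87 within replicates 1 to 3). The other relation at this adjusted p was that of *Peg10* with blood markers, for which no pooled r is given (0.11 within replicates 1 to 3, n = 6, exact permutation p = 0.829). For *Igf2* and connective tissue markers the r was 0.70 (permutation p = 0.024, adjusted p = 0.222; rho = 0.60, permutation p = 0.0734), 0.36 without the 2 farthest embryos and 0.81 within replicates 1 to 3 (n = 6, exact permutation p = 0.0639). The r of *Igf2* with connective tissue markers was 0.84 with the genotype means removed and 0.75 with those of the replicate numbers removed as well. Sums of these markers over the libraries ranged from 4376 to 6086 CPM in control and 4934 to 5730 CPM in *WD1* cKO embryos, with control replicate 3 and *WD1* cKO replicate 3, the embryos highest in *Igf2*, also the highest of their groups. Beyond these relations, the part of tissue composition in the co-variation was not tested.

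A split between replicates 1 to 3 and replicates 4 and 5 of both genotypes was noticed in the data, and no label says what the numbers share. In 10 of the 29 members the 6 embryos of replicates 1 to 3 did not overlap with the 4 of replicates 4 and 5, against 11.2% of all genes tested. In 9 of them replicates 1 to 3 were higher, against 5.07% of all genes, and in 1 they were lower, against 6.11%. The 9 were *Igf2r*, *Usp29*, *Mest*, *Cdkn1c*, *Plagl1*, *Grb10*, *Nnat*, *Peg10* and *Asb4*, and the 1 was *Meg3*. *Grb10* had a median of 294 CPM (274 to 323) in replicates 1 to 3 and 235 CPM (223 to 253) in replicates 4 and 5. *Mest*, a gene of the hydrolase fold family, had 257 CPM (251 to 269) and 231 CPM (217 to 239), and *Nnat* 482 CPM (441 to 504) and 399 CPM (388 to 441). *Meg3* had 4558 CPM (4427 to 5127) in replicates 1 to 3 and 5372 CPM (5160 to 5418) in replicates 4 and 5. The sums of the blood markers moved with this split, as given above. Those of the endothelial markers also did not overlap (243 to 277 against 223 to 234 CPM), but this rested on *Cdh5* (99.8 to 119 against 76.6 to 95.6 CPM). *Pecam1*, *Kdr*, *Tek* and *Cldn5* overlapped between the sets. So did the mean log2 CPM of the endothelial list, which the correlations use (5.03 in control replicate 2, 5.14 in control replicate 5). Within replicates 1 to 3 (n = 6), the r of the 9 higher genes with blood markers ranged from -0.67 (*Cdkn1c*, exact permutation p = 0.154) to 0.15 (*Plagl1*, exact permutation p = 0.80), and that of *Meg3* was 0.92 (exact permutation p = 0.00417). The sign for *Meg3* within replicates 1 to 3 was thus opposite to that of the split, where *Meg3* was lower in the set with more blood markers. With endothelial markers, the r of the 9 genes ranged from -0.80 (*Asb4*, exact permutation p = 0.0583) to 0.86 (*Igf2r*, exact permutation p = 0.0292), and that of *Meg3* was -0.82 (exact permutation p = 0.0472). These p-values are not adjusted. Beyond these values, the part of blood or vessel content in the split was not tested.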

How the data were processed

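DRG of 10 embryos, 5 of each genotype, were sequenced as stranded mRNA libraries. Per the labels and the methods, reads were processed with bcl2fastq 2.20.0.422, aligned with STAR 2.7.8a to GRCm39 and counted per gene with featureCounts 2.0.1. The authors deposited raw counts per Ensembl gene, without normalization. The handling of strand, of reads with several positions and of reads in several genes is not given in the sources used here.

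Libraries were grouped by title. Symbols matched 52081 of 55414 identifiers, and lengths and overlaps came from GENCODE for GRCm38. Tests used edgeR 4.0.16 in R 4.3.3 (TMM, quasi-likelihood test, at least 10 counts in at least 5 libraries, Benjamini-Hochberg over 17490 genes), with DESeq2 1.42.0 as an alternative. CPM was scaled by TMM, and log2 CPM used a prior count of 1. Correlations were computed with Python 3.11.15 and tested by two-sided permutation. The fits and correlations were tested on simulated data with known answers. There edgeR called 4 of 47 genes changed by 0.2 on the log2 scale and 13 of 50 changed by 0.3. Of genes changed by 1 it called 46 of 50. Changes as small as 0.2 were thus mostly missed.

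The members and the lists were chosen with earlier results of these data known. Genes named are the 30 members, genes of the related lists with an unadjusted p-value under 0.05, the 10 genes most like *Igf2* and *Meg3*, and *Dach1*. No library was a copy of another: the chi-square of within-group pairs was 4.33 to 15.7 times its degrees of freedom. Nothing says whether same-group embryos are independent litters, so p-values measure the spread between these samples. The controls were littermates of *WD1* cKO embryos, but the main fit and the pooled permutations treated all embryos as independent. Alternatives were DESeq2's size factors, other filters on low counts, DESeq2's Wald test, a replicate block, a covariate for the *Xist* level, another prior count and each library left out in turn, and, added after the data were seen, terms for the replicate numbers.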

Additional observations from a re-analysis of the deposited data

Results flagged for a closer look

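In 2 of the 60 sets of 5 libraries examined (30 genes in 2 genotypes), 1 library lay far from the other 4 by Dixon's criterion, where chance flags about 1 in 20 sets, or 3 here. *Gnas*, which encodes the stimulatory G protein alpha subunit and neighbouring imprinted transcripts, stood at 75.4 CPM in control replicate 1 and between 27.8 and 40.6 CPM in the other 4 control embryos. Without that library its log2 fold change moved from 0.049 to 0.33. *Ndn* stood at 326 CPM in control replicate 3 and between 398 and 414 CPM in the other 4. Control replicate 3 also had the highest sum of spinal cord markers (12.0 CPM) and of connective tissue markers (6086 CPM), and the part of either in the level of *Ndn* was not tested.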

How the results depend on the processing

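No imprinted gene was called at an adjusted p of 0.05 by edgeR or DESeq2 under any of the 18 alternatives to the fit, in 520 recomputed fold changes. The number with an unadjusted p under 0.05 was 2 (1 to 2 over the fits without a library), and the median log2 fold change lay between -0.030 and 0.015 in those fits. Directions of uncalled genes were less stable. With *Xist* as a covariate *Igf2* was at 0.11 and *H19* at 0.038. *Rian* was at 0.0097 without the filter on low counts, 0.0013 when only genes averaging 100 counts were kept and 0.00044 with the replicate block, and *Gnas* at -0.13 in replicates 1 to 3 only. Without a library in turn, *Igf2* ranged from -0.20 to 0.063, *H19* from -0.14 to 0.031, *Rian* from -0.026 to 0.022, *Mirg* from -0.030 to 0.010, *Cdkn1c* from -0.055 to 0.15 and *Gnas* from -0.080 to 0.33. The other 18 genes tested changed sign in 52 of 323 recomputed values, in genes whose log2 fold change was within 0.069 of 0. In the same fits, 1 to 4 other imprinted genes and 0 to 1 IGF pathway genes had an unadjusted p under 0.05. Over all genes, 7 were called in the fit of the report, 19 by DESeq2's Wald test, 11 with a term for replicates 1 to 3 or 4 and 5, 3 in replicates 1 to 3 only, 4 with *Xist* as a covariate and 3 to 6 without a library in turn. The causes were not tested.

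The replicate numbers did not meet the criterion for pairing, since the correlation of same-numbered deviations was 0.33, 0.040, 0.32, 0.35 and 0.39 for replicates 1 to 5, although 7 of 10 libraries correlated best with their own number. With the replicate block, 3 imprinted genes (*Nap1l5*, *Ndn* and *Zdbf2*) had an unadjusted p under 0.05, that of *Nap1l5* being 0.000385 in edgeR's quasi-likelihood test (adjusted p = 0.224), and over all genes 8 were called in place of 7 and 1241 in place of 787 had an unadjusted p under 0.05.

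Of the 27 pairs, 14 had a permutation p under 0.05. There were 6 with the replicate block, 7 with the means of genotype and of replicates 1 to 3 or 4 and 5 removed, 7 in replicates 1 to 3 only, and 9 to 15 without a library in turn (9 without *WD1* cKO replicate 5). *Igf2* and *H19* had an r between 0.965 and 0.986 in the fits without a library. With the replicate block the r turned to -0.44 for *Igf2* and *Igf2r*, -0.22 for *Igf2* and *Plagl1*, -0.18 for *H19* and *Plagl1* and -0.22 for *Dlk1* and *Cdkn1c*, and with the means removed it was -0.021 for *Igf2* and *Igf2r*. Relations to marker lists that passed adjustment numbered 0, but 3 with genotype means removed, 6 with the means of replicate numbers removed as well, and 0 to 6 without a library in turn (6 without *WD1* cKO replicate 3). The alternatives that use the split of the replicate numbers were chosen after the data were seen. With means removed, also those of the replicate block, the deviations were permuted freely over the embryos. This can make the p-values of these alternatives too small, so their counts of pairs and relations may be too high. Depth limits *Phlda2*, *Asb4* and *Slc22a18*, which were counted at most 134 times in a library.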
